A study of Mus musculus with 12 samples.

Results

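The peaks described here lie around Id1, Id2, Id3 and Cdkn1a, genes that hold back or carry out the exit of myoblasts from the cell cycle. Members are all listed peaks of H3K4me1, H3K4me2 and H3K4me3 that overlap 1 of 4 windows of build mm9 by at least 1 bp, 102 of the 134900 peaks in 6 lists. The windows were Id1 on chromosome 2 (152535000 to 152590000), Id2 on chromosome 12 (25750000 to 25810000), Id3 on chromosome 4 (135670000 to 135730000) and Cdkn1a on chromosome 17 (29205000 to 29260000). They held 26, 16, 46 and 14 peaks.

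The cells were C2C12, a mouse myoblast line, kept for 48 h (day 2) in differentiation medium with horse serum. One group received S2101, an LSD1 inhibitor, at 10 µM and the other vehicle, and both shared every other step named in the labels. LSD1 takes methyl groups off mono- and dimethylated lysine 4 of histone H3. Chromatin immunoprecipitation with sequencing gave 1 list per mark and treatment, with H3K4me1 and H3K4me2 from experiment 1 and H3K4me3 from experiment 2. There are no replicates, so the differences below are descriptions of single libraries, without a test or an error between samples. Where H3K4me3 is set against the other marks, mark and experiment cannot be told apart. The number of reads behind each list is unknown, and a position without a listed peak may still carry the mark. The peak lists hold no expression values, so whether the cells expressed myogenic or Id genes was not checked here.

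Id proteins are helix-loop-helix proteins without a DNA-binding basic region. They pair with E proteins and so keep these from joining MyoD on E-boxes, and they are known to be high in growing myoblasts and to decline on differentiation. Cdkn1a encodes p21, an inhibitor of cyclin-dependent kinases that is induced as myoblasts leave the cell cycle and is a known target of MyoD and p53. H3K4me3 is found at promoters in use, H3K4me1 at enhancers and beside promoters, and H3K4me2 at either kind of element.

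The promoter sequences of Id2, Id3 and Cdkn1a, but not Id1, were matched by symbol in RefSeq (GRCm38.p6). They reach from 250 bases before a gene's start to 50 bases after it. They are shown because the main contrast in the peak lists, given below, separates the Id genes from Cdkn1a at their central H3K4me3 peaks. Capitals mark E-boxes (CANNTG, which reads alike on both strands). Their coordinates belong to GRCm38 and cannot be set against the mm9 positions of the peaks.
Id2 (chr12:25096043-25096342, minus strand): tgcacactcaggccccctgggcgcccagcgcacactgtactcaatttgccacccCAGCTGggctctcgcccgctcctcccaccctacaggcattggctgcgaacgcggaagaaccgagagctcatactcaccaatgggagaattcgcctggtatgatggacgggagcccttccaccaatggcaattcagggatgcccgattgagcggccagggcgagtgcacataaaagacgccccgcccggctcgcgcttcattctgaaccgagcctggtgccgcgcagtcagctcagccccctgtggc
Id3 (chr4:136143572-136143871, plus strand): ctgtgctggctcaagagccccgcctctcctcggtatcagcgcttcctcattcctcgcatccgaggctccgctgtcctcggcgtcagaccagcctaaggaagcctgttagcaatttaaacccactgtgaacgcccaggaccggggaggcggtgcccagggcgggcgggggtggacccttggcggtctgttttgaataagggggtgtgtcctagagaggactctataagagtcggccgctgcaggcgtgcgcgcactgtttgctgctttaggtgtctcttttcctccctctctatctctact
Cdkn1a, upstream start (chr17:29090729-29091028, plus strand): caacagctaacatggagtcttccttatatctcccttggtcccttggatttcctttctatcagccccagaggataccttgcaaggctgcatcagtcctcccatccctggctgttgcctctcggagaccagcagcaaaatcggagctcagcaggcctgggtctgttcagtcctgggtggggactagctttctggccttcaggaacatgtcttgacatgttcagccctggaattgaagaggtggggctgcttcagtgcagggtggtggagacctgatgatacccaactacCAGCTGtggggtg
Cdkn1a, downstream start (chr17:29093519-29093818, plus strand): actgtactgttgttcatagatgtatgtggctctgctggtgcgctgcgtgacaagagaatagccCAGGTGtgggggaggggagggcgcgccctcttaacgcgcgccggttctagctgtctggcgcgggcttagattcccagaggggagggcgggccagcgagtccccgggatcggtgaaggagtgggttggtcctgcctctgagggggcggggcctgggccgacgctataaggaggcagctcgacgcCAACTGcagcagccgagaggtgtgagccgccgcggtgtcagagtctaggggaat

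The Id2 promoter held 1 E-box, CAGCTG, beginning 196 bases before the start, and the Id3 promoter held none. At the upstream Cdkn1a start an E-box, CAGCTG, began at base 38 of the transcribed side. The downstream start had CAGGTG at 187 and CAACTG at 4 bases before it. Of 32851 RefSeq promoters of this length, 72.3% held a CANNTG and 16.3% a CAGCTG. GC boxes (GGGCGG on either strand, in 35.7% of promoters) numbered 2 at Id3, in overlap, 2 at the downstream Cdkn1a start and 1 at Id2. The CCAAT box (either strand, in 37.4% of promoters) occurred at 3 places, all in the Id2 promoter. CpG dinucleotides numbered 21 at Id2, 19 at Id3 and 23 at the downstream Cdkn1a start, against 2 at its upstream start and a median of 7 over all promoters. Thus 1 of the 4 printed stretches, the upstream Cdkn1a start, was poor in CpG. A match to these letters describes the sequence and not a bound site.

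In all 4 windows the S2101 lists covered fewer bases with H3K4me1 and H3K4me2 and more with H3K4me3. H3K4me1 peaks took up 17086 bp of the windows in the vehicle list and 6035 bp in the S2101 list, a ratio of 0.353 (S2101 over vehicle). For H3K4me2 the covered bases were 32597 bp (vehicle) and 16592 bp (S2101), a ratio of 0.509, although the peaks were more numerous with S2101, 23 against 15. The whole S2101 list likewise had more H3K4me2 peaks, 24444 against 21447, and narrower ones, with a median of 552 bp against 1342 bp. At a score of 200 or more the windows held 16 (S2101) and 15 (vehicle) H3K4me2 peaks. For H3K4me3 they were 19085 bp (vehicle) and 22974 bp (S2101), a ratio of 1.20. These directions were those of most of the genome. Over 60 kb tiles holding a vehicle peak of the mark, coverage was lower with S2101 in 96.7% for H3K4me1 and 99.7% for H3K4me2, and higher in 77.7% for H3K4me3. Over the whole lists the ratios were 0.347, 0.467 and 1.10. The shared direction of the 4 windows is therefore near the background, and the windows differ among themselves in the size of the H3K4me2 and H3K4me1 differences. With lists of equal length the H3K4me1 direction at Id2 turned, with 0 bp (vehicle) and 296 bp (S2101).

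**Figure D1:**
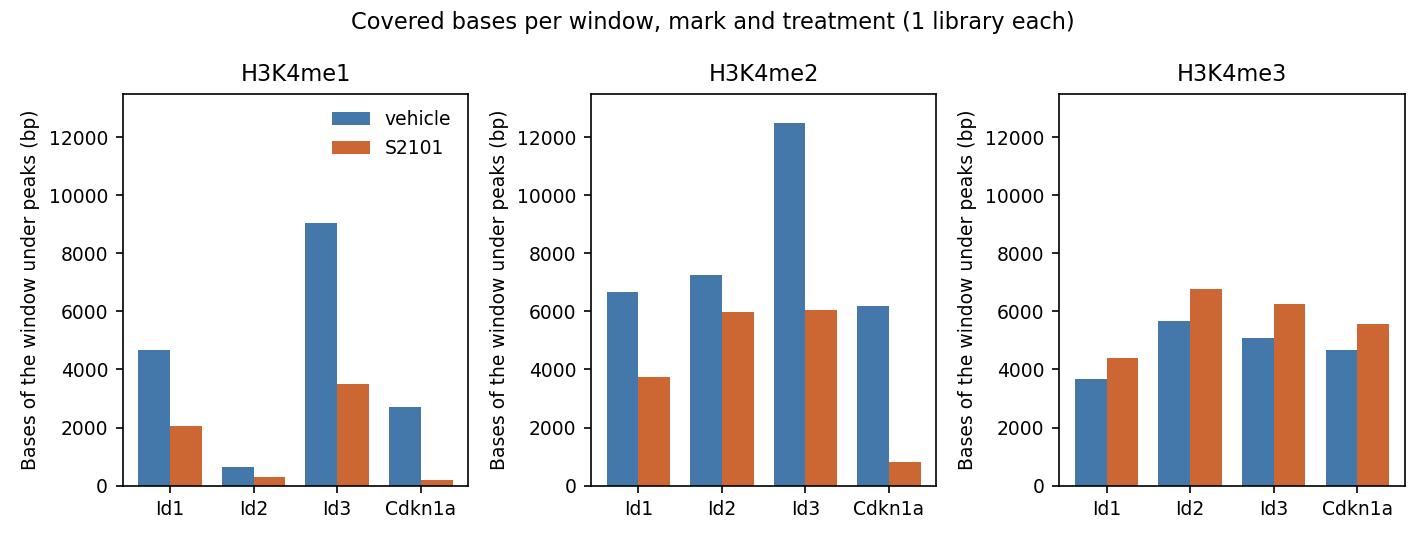
Bases of each window under listed peaks (vertical axis, bp) for vehicle (blue) and S2101 (orange), with 1 panel per mark and 1 library per bar. In the Cdkn1a window the H3K4me2 bar goes from 6196 bp with vehicle to 826 bp with S2101, whereas the Id2 bar goes from 7255 bp to 5982 bp.

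Among the windows the S2101-to-vehicle ratio of H3K4me2 was highest for Id2 and lowest for Cdkn1a. The Id2 window had 7255 bp of H3K4me2 in the vehicle list and 5982 bp in the S2101 list, a ratio of 0.825. For Id1 the values were 6657 bp and 3734 bp (0.561). For Id3, the window with the most H3K4me2 in vehicle, they were 12489 bp and 6050 bp (0.484). The Cdkn1a window had 6196 bp and 826 bp, a ratio of 0.133. A difference of at least 1.5-fold, the size used for calls here, was thus present in Id1, Id3 and Cdkn1a, 3 of 4 windows, against 86.4% of all tiles with vehicle H3K4me2.

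For H3K4me1 the Cdkn1a window again had the lowest ratio as the windows stand. Cdkn1a had 2725 bp (vehicle) and 197 bp (S2101, ratio 0.0723), Id3 had 9047 bp and 3504 bp (0.387), Id1 had 4679 bp and 2038 bp (0.436) and Id2 had 635 bp and 296 bp (0.466). All 4 were past 1.5-fold, as were 89.8% of tiles with vehicle H3K4me1. The Cdkn1a value rests on few peaks. It was 0.193 with lists of equal length, 0 with windows narrowed by 10 kb and 0.480 with windows widened by 10 kb. In the widened windows it was not the lowest, as Id3 had 0.394, Id2 0.466 and Id1 0.542.

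H3K4me3 ratios were nearly alike, 1.20 for Id1 (3655 bp with vehicle, 4395 bp with S2101), 1.19 for Id2 (5663 and 6758 bp), 1.23 for Id3 (5081 and 6258 bp) and 1.19 for Cdkn1a (4686 and 5563 bp). None reached 1.5-fold, a size that 4.02% of tiles reached.

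**Figure D2:**
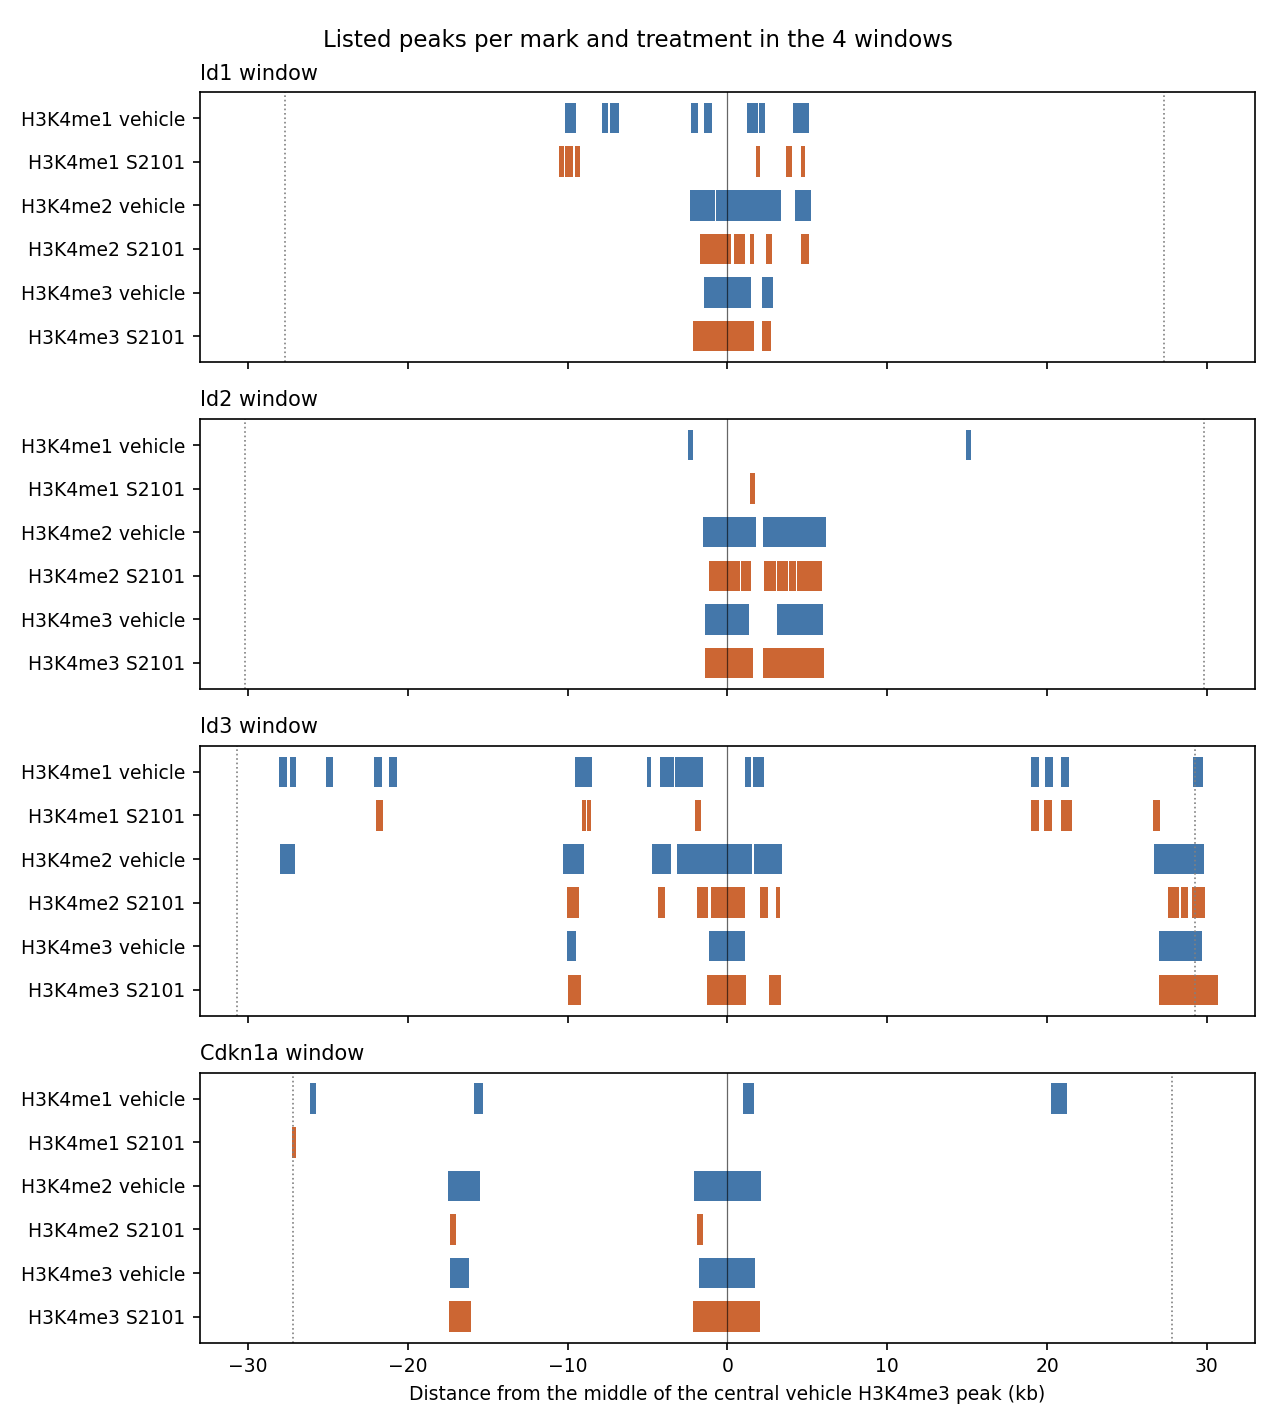
Each bar is a listed peak, placed by its distance in kb (horizontal axis) from the middle of the vehicle H3K4me3 peak at the centre of the window. Rows are mark and treatment (vehicle blue, S2101 orange) and dotted lines are the window edges. H3K4me3 peaks lie at the same places in both treatments, mostly wider with S2101, except for 1 S2101 peak at Id3 without a counterpart. H3K4me2 is broken into shorter pieces with S2101, and the Cdkn1a window has only 2 short H3K4me2 pieces with S2101.

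In each window an H3K4me3 peak lay over the midpoint, in both treatments, and it is called the central peak here. It had the score 3100, the value at which most high scores stand, in all 4 windows and both lists. Of all H3K4me3 peaks, 56.5% (vehicle) and 59.8% (S2101) had a score of 3100 or more. The central vehicle peak was at 152561195 to 152564142 for Id1 (2948 bp), at 25778827 to 25781585 for Id2 (2759 bp), at 135699587 to 135701830 for Id3 (2244 bp) and at 29230431 to 29233937 for Cdkn1a (3507 bp). With S2101 these peaks lay at 152560514 to 152564318 (3805 bp), 25778817 to 25781802 (2986 bp), 135699460 to 135701859 (2400 bp) and 29230011 to 29234200 (4190 bp). All 4 were wider, by a factor of 1.29 for Id1, 1.08 for Id2, 1.07 for Id3 and 1.19 for Cdkn1a. Over all H3K4me3 peaks with 1 overlapping S2101 peak the median factor was 1.07, and 76.5% were wider. The added width lay on both sides in every window. At Id1 it was mostly on the left (681 bp, against 176 bp on the right), and at Cdkn1a it was 420 bp on the left and 263 bp on the right.

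Inside the central peaks the Id genes and Cdkn1a differed most in H3K4me2. With vehicle, H3K4me2 peaks covered 97.6% of the Id1 central peak, 100% of that of Id2, 98.7% of that of Id3 and 99.5% of that of Cdkn1a. With S2101 they covered 82.7% for Id1 (2437 of 2948 bp), 88.8% for Id2 (2451 of 2759 bp) and 94.9% for Id3 (2129 of 2244 bp). At Cdkn1a they covered 6.42% (225 of 3507 bp). The 4 genes were thus alike with vehicle in the share covered, though not in the H3K4me2 scores given below. With S2101 the 3 Id genes had H3K4me2 over most of their central peak while Cdkn1a had a short piece of it at the left edge.

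These values were set beside all 7672 vehicle H3K4me3 peaks of score 3100 or more that held vehicle H3K4me2. Their median ratio of H3K4me2 bases, S2101 over vehicle, was 0.634 (quartiles 0.500 and 0.756), and 57.2% were at least 1.5-fold lower. Ratios at the central peaks were 0.847 for Id1, 0.888 for Id2, 0.961 for Id3 and 0.0645 for Cdkn1a. A ratio as low as that of Cdkn1a or lower was found in 2.06% of these peaks, nearly all of them the 155 peaks (2.02%) without any H3K4me2 base in the S2101 list. The Id ratios were at or above 89.3% (Id1), 94.1% (Id2) and 98.6% (Id3) of the peaks. The vehicle H3K4me2 scores also differed, with a highest score over the central peak of 2110.78 at Id1, 2019.67 at Id2, 1671.55 at Id3 and 727.57 at Cdkn1a. Among the 1918 H3K4me3 peaks in the same quartile of that score as Cdkn1a (670 to 946), the median ratio was 0.603 and 1.25% were as low. In the highest quartile, where the Id genes fell, the median was 0.744, and 76.5% (Id1), 86.4% (Id2) and 97.0% (Id3) were as low or lower. Within the same quartile of score the shares were thus less extreme for Id1 and Id2, and slightly less so for Id3. At Cdkn1a the share was 1.25% within the quartile and 2.06% among all these peaks. The match is coarse, as the highest quartile reached from 1370 to 3220. It used only the highest score, and another vehicle H3K4me2 peak over the Cdkn1a central peak had 497.95. Whether the score accounts for any of these differences was not tested.

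**Figure D3:**
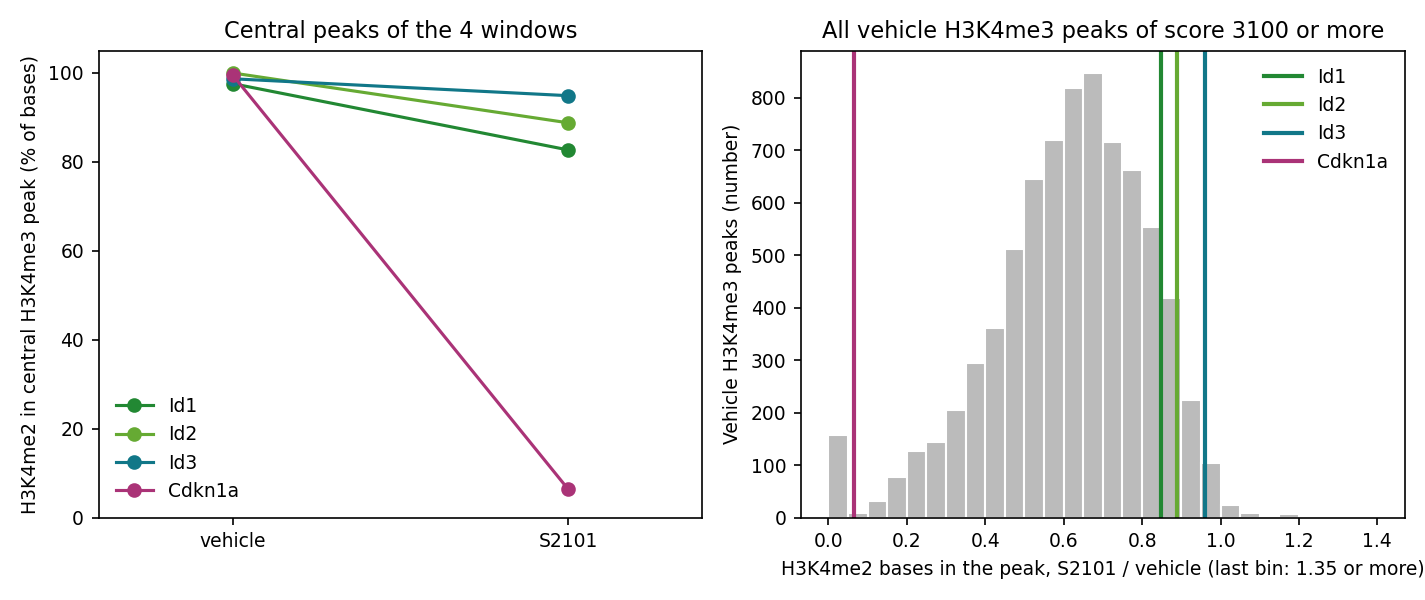
Left, share of the central vehicle H3K4me3 peak under H3K4me2 peaks (% of bases) in each treatment, 1 line per gene. Right, number of vehicle H3K4me3 peaks of score 3100 or more by their ratio of H3K4me2 bases, S2101 over vehicle, with the 4 genes as vertical lines. In the left panel Cdkn1a drops to 6.42% and in the right panel it lies beside the first bar, which holds the 155 peaks with no S2101 H3K4me2, and the Id genes lie between 0.847 and 0.961.

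Of the 17086 bp of vehicle H3K4me1 in the windows, 1514 bp lay inside the 4 central peaks and 4237 bp within 2 kb on either side of them, and the rest lay further away. With S2101 H3K4me1 covered 0 bp inside and 926 bp in the flanks. The bases inside came from Id1 (750 bp), Cdkn1a (733 bp) and Id3 (31 bp), and Id2 had none in either treatment. In the flanks, Id3 had 1623 bp on the left and 1052 bp on the right with vehicle, and 371 bp and 0 bp with S2101. H3K4me2 in the flanks went from 9018 bp with vehicle to 3303 bp with S2101, and H3K4me3 from 982 bp to 4163 bp. Not every flank followed the sums. On the right of the Id2 central peak H3K4me1 bases numbered 0 (vehicle) and 296 (S2101). Part of the H3K4me3 sums came from other peaks than the central ones, at Id1, Id2 and Id3. With vehicle all 982 bp did, as the flanks begin at the edges of the central vehicle peak. At Id1 the right flank held 707 bp (vehicle) and 766 bp (S2101).

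**Figure D4:**
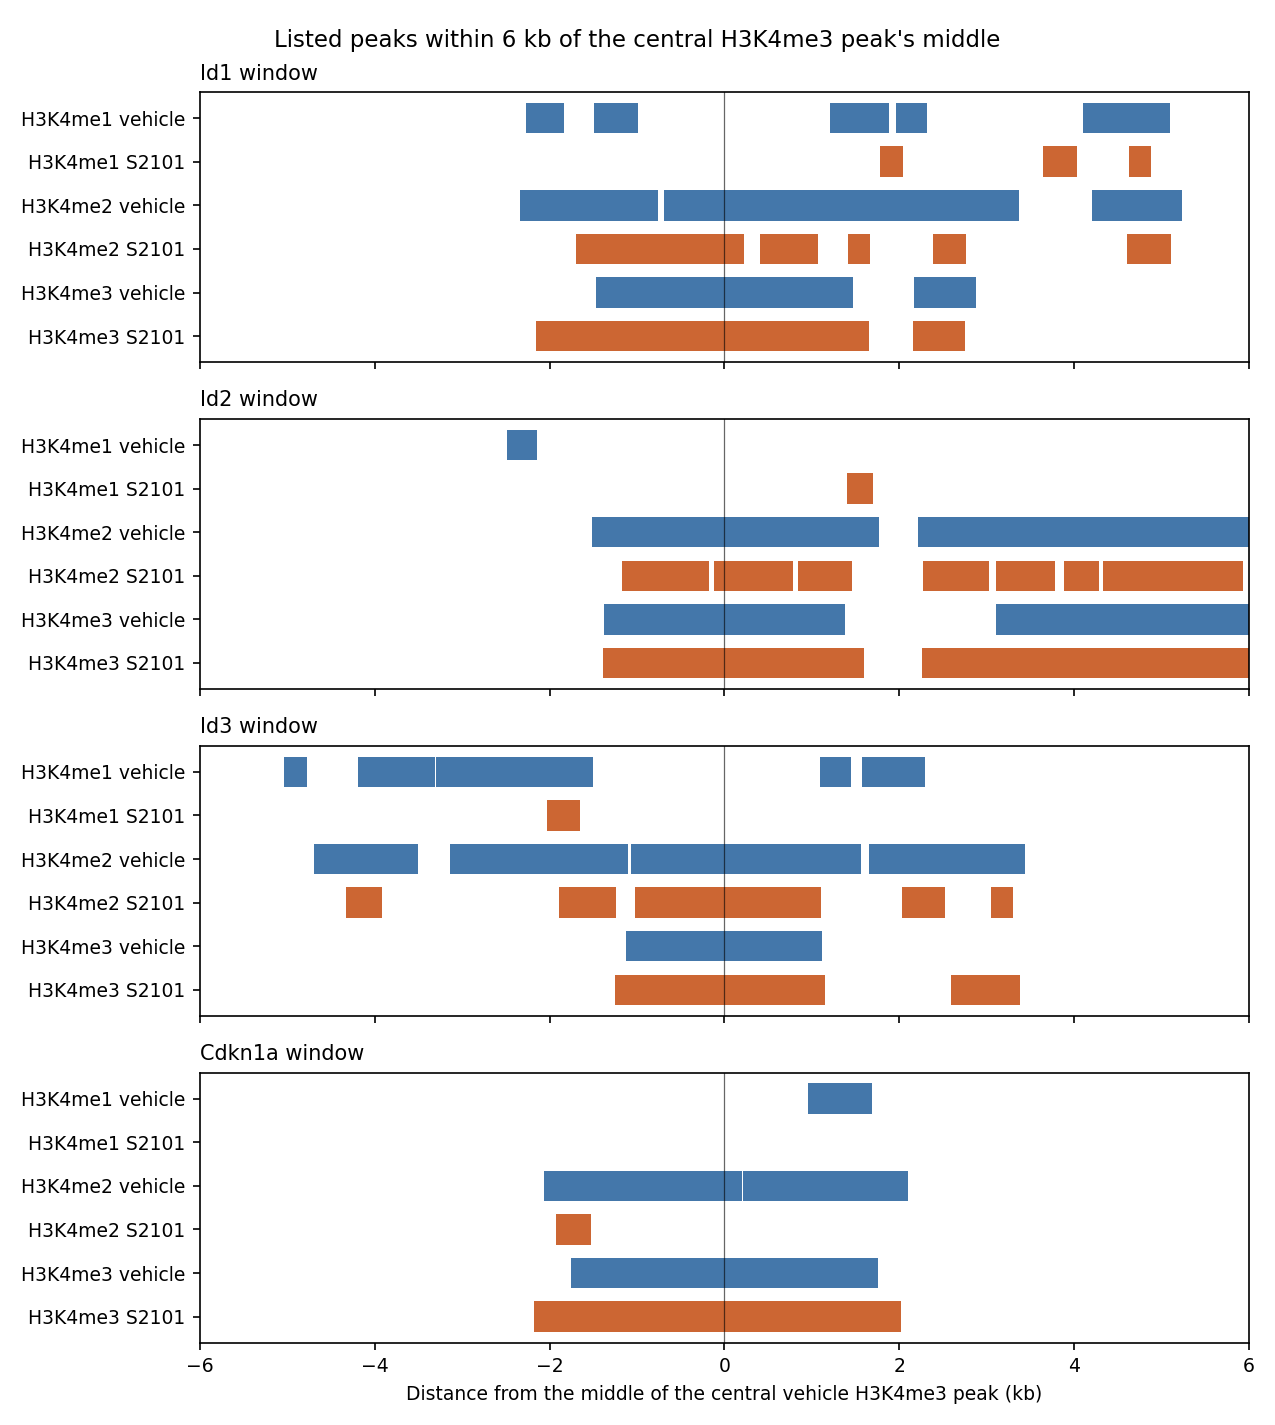
The same peaks within 6 kb of the middle of the central vehicle H3K4me3 peak (horizontal axis, kb; vehicle blue, S2101 orange). H3K4me2 lies under 97.6 to 100% of the central H3K4me3 peak with vehicle, and with S2101 under most of it at Id1, Id2 and Id3 but only at the left edge at Cdkn1a.

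Id1, which is induced by BMP signalling, had all its listed peaks in the middle part of the window. In RefSeq order its neighbouring protein-coding genes are Mcts2 and Cox4i2, and peaks away from the centre were assigned to no gene. Besides the central peak, a small H3K4me3 peak lay to its right in both treatments, at 152564842 to 152565548 (707 bp, score 241.34) with vehicle and at 152564830 to 152565419 (590 bp, score 351.95) with S2101. The widest vehicle H3K4me2 peak, at 152561980 to 152566041 (4062 bp), had the score 2110.78, exceeded by 3.09% of its list. With S2101, 4 separate peaks covered 2223 bp of it, with gaps of 177 to 721 bp between them, and the widest S2101 peak was at 152560976 to 152562897 (1922 bp, score 1007.3). The next pieces by width were at 152563075 to 152563743 (669 bp) and 152567278 to 152567784 (507 bp). Vehicle H3K4me2 at 152560336 to 152561908 had 933 of 1573 bp covered, and that at 152566878 to 152567899 had 507 of 1022 bp. All 8 H3K4me2 peaks of this window had a counterpart in the other treatment. Over the whole lists, 25.8% (vehicle) and 3.94% (S2101) of the H3K4me2 peaks had none.

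Of the 8 vehicle H3K4me1 peaks at Id1, 4 had an S2101 counterpart and 4 had none, against 67.0% of the list without one. The widest and highest-scoring, at 152566771 to 152567772 (1002 bp, score 519.52), had 257 bp covered with S2101. The next by width, at 152552526 to 152553216 (691 bp, score 356.54), lay 9.45 kb left of the centre without any other mark and had 596 bp covered. At 152563882 to 152564553 (672 bp), on the right border of the central peak, 103 bp were covered. Peaks at 152554801 to 152555212, 152555303 to 152555910, 152560403 to 152560828 and 152561178 to 152561683 had no counterpart. The last of these lay over the left end of the central H3K4me3 peak, and the one before it within vehicle H3K4me2. Of the 6 S2101 H3K4me1 peaks, 2 were without a vehicle counterpart, against 27.5% of the list. These 2, at 152552140 to 152552434 and 152566320 to 152566699, lay 91 and 71 bp from a vehicle peak. The widest and highest-scoring S2101 peak was at 152552506 to 152553021 (516 bp, score 211.77), next to one at 152553117 to 152553447 (331 bp). The Id1 ratio for H3K4me1 was 0.180 with peaks of score 200 or more.

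Id2, a partner of E proteins that also binds Rb, had the least vehicle H3K4me1 of the 4 windows and vehicle H3K4me2 in a pair of wide domains. Its neighbours in RefSeq order are Kidins220 and Rnf144a. Vehicle H3K4me2 lay at 25778693 to 25781977 (3285 bp, score 2019.67) and at 25782427 to 25786396 (3970 bp, score 2308.16). With S2101 the first was covered by 3 peaks over 2537 bp (77.2%), and the other by 4 peaks over 3445 bp (86.8%). The gaps between these S2101 peaks were short, 49 to 51 bp in the first domain and 48 to 93 bp in the other, and no S2101 base lay outside the vehicle domains. Thus the larger number of H3K4me2 peaks with S2101, 7 against 2, came with fewer covered bases. The widest and highest-scoring S2101 piece was at 25784539 to 25786143 (1605 bp, score 1238.4). It was followed by width by pieces at 25779035 to 25780034 (1000 bp) and 25780086 to 25780994 (909 bp).

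Next to the central H3K4me3 peak at Id2 there was another, at 25783311 to 25786214 with vehicle (2904 bp, score 2409.15) and at 25782462 to 25786233 with S2101 (3772 bp, score 3100). This was the widest vehicle H3K4me3 peak of the window, and with S2101 its left border lay close to that of the H3K4me2 domain. The vehicle H3K4me1 peaks, at 25777717 to 25778062 (346 bp, score 145.39) and 25795166 to 25795454 (289 bp, score 106.22), had no counterpart. The only S2101 H3K4me1 peak, at 25781609 to 25781904 (296 bp, score 113.09), had none either and lay 3546 bp from the nearest vehicle peak. These 3 scores are low, each exceeded by at least 66.2% of the peaks in its list. Over the whole lists, 67.0% (vehicle) and 27.5% (S2101) of the H3K4me1 peaks had no counterpart.

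Id3 had the most peaks, 46, and its window reaches into a region with H3K4me3 of its own on the right. Its neighbours are Rpl11, a ribosomal protein gene, and E2f2, which encodes a transcription factor of the cell cycle. Vehicle H3K4me3 was listed at 3 places, the central peak, a weak one at 135690696 to 135691253 (558 bp, score 109) and a wide one across the right edge at 135727722 to 135730428 (2707 bp, score 3100). With S2101 the weak peak was at 135690750 to 135691517 (768 bp, score 341.18) and the wide one at 135727694 to 135731431 (3738 bp, score 3100). A further S2101 peak, at 135703305 to 135704087 (783 bp, score 355.84), was the only H3K4me3 peak of the 4 windows without a counterpart, 1 of 10 in the S2101 list against 8.43% of that list as a whole. It lay within a vehicle H3K4me2 peak, 2.60 kb right of the centre. None of the 9 vehicle H3K4me3 peaks lacked a counterpart, against 1.30% of the list.

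H3K4me2 at the Id3 centre was listed as 1 vehicle peak of 2638 bp (135699639 to 135702276, score 1671.55), with 2129 bp (80.7%) under a single S2101 peak (135699687 to 135701815, score 1186.38). That S2101 peak was wider than all but 0.794% of its list. The domains on both sides kept less, 658 of 2046 bp at 135697564 to 135699609 and 749 of 1781 bp at 135702363 to 135704143. Further out, 409 of 1191 bp were covered at 135696008 to 135697198, and 780 of 1267 bp at 135690443 to 135691709, in a single S2101 peak (135690651 to 135691430, score 595.53). The widest and highest-scoring vehicle peak, at the right edge (135727396 to 135730513, 3118 bp, score 1682.52), had 1838 bp under 3 S2101 peaks, the wider of them at 135729802 to 135730569 (768 bp) and 135728274 to 135728976 (703 bp). An H3K4me2 peak at 135672707 to 135673667 (961 bp, score 229.12) had no counterpart. Across the Id3 locus, H3K4me2 with S2101 was thus densest under the central H3K4me3 peak.

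The H3K4me1 peaks of the Id3 window numbered 15 with vehicle and 8 with S2101. Directly left of the central peak lay the widest and highest-scoring one, at 135697404 to 135699209 (1806 bp, score 754.74, exceeded by 3.63% of its list), of which S2101 covered 371 bp. At 135691200 to 135692235 (1036 bp, score 482.52) 545 bp were covered. A group of 3 vehicle peaks 19.0 to 20.9 kb right of the centre, at 135719680 to 135720198, 135720573 to 135721067 and 135721577 to 135722107, held no other mark. They were almost fully covered with S2101, over 485 of 519, 447 of 495 and 507 of 531 bp, and the widest S2101 H3K4me1 peak of the window was the last of them (135721601 to 135722247, 647 bp, score 253.5). The next by width there were at 135720491 to 135721019 (529 bp) and 135719704 to 135720188 (485 bp). H3K4me1 near the centre and this distal group on the right therefore differed in how much was covered with S2101. Distal peaks on the left without another mark were mixed. Those at 135675583 to 135676046 and 135679523 to 135680044 had 0 bp covered, and that at 135678589 to 135679105 had 409 of 517 bp.

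At Id3, 9 of the 15 vehicle H3K4me1 peaks had no counterpart, against 67.0% of the list. On the left they lay at 135672668 to 135673131, 135673361 to 135673688, 135675583 to 135676046, 135679523 to 135680044, 135695665 to 135695932 and 135696518 to 135697395 (878 bp, the widest of them). On the right they lay at 135701800 to 135702162, 135702287 to 135703006 and 135729865 to 135730454. In the S2101 list, only the peak at 135727342 to 135727808 (467 bp), 1 of 8, had no counterpart, against 27.5% of the list. The Id3 ratio for H3K4me1 was 0.223 with windows narrowed by 10 kb, which leaves out most of the distal group on the right, and 0.0919 within 5 kb of the central peak, an extent added after the data had been seen.

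At Cdkn1a, whose neighbours are Srsf3 and Rab44, H3K4me3 lay at the same places in both treatments while most H3K4me2 and all H3K4me1 of the vehicle list had no S2101 peak. A second H3K4me3 peak was listed 16.1 kb left of the centre, at 29214858 to 29216036 (1179 bp, score 749.44) with vehicle and at 29214789 to 29216161 (1373 bp, score 879.6) with S2101. Vehicle H3K4me2 lay over it at 29214690 to 29216734 (2045 bp, score 619.73), and S2101 covered 423 bp of that (29214808 to 29215230, score 117.91). At the centre, vehicle H3K4me2 was listed at 29230122 to 29232383 (2262 bp, score 727.57) and at 29232401 to 29234289 (1889 bp, score 497.95). S2101 covered 403 bp of the first (29230253 to 29230655, score 215) and none of the other, which was 1745 bp from the nearest S2101 peak. This peak and that at 135672707 in the Id3 window were the 2 of 15 vehicle H3K4me2 peaks without a counterpart, against 25.8% of the list. All 23 S2101 H3K4me2 peaks of the 4 windows had one, against 3.94% of the list without.

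None of the 4 vehicle H3K4me1 peaks at Cdkn1a had a counterpart. They were at 29206061 to 29206468 (408 bp, score 165.99), 29216298 to 29216862 (565 bp, score 144.72), 29233145 to 29233877 (733 bp, score 155.05) and 29252448 to 29253466 (1019 bp, score 483.59). The third lay fully within the central H3K4me3 peak. The last, 20.3 kb right of the centre, was the highest-scoring, exceeded by 9.95% of its list, and held no other mark in either treatment. The single S2101 H3K4me1 peak of the window, at 29204909 to 29205196 (288 bp, score 100.69), lay across its left edge. Over the 4 windows, 19 of 29 vehicle H3K4me1 peaks and 5 of 16 S2101 peaks had no counterpart, against 67.0% and 27.5% of the lists, which is near the background.

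Counted in bases, H3K4me2 was kept more often within vehicle H3K4me3 peaks than outside them at the 3 Id genes. At Id1, 76.6% of the vehicle H3K4me2 bases within H3K4me3 peaks were also covered with S2101, and 29.9% of those outside. For Id2 these shares were 90.7% and 53.1%, and for Id3 79.4% and 27.4%. For Cdkn1a they were 12.8% and 14.9%, so that the bases within H3K4me3 had no higher share there. Over the whole lists the shares were 61.4% and 14.6%. For H3K4me1 no base within vehicle H3K4me3 peaks (1854 bp in the windows) was covered in both treatments, compared with 24.9% of the 15232 bp outside, and over the whole lists it was 264436 of 2195630 bp inside and 25.2% outside. Of the 16592 bp of S2101 H3K4me2 in the windows, 71 bp lay outside vehicle H3K4me2, all at Id1.

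The windows were placed among the 60 kb tiles that held vehicle peaks of the mark and of H3K4me3. For H3K4me2 the median ratio over 9106 tiles was 0.499 (quartiles 0.368 and 0.615). Ratios as low as or lower than that of the window were found in 6.28% of tiles for Cdkn1a, 46.5% for Id3, 63.9% for Id1 and 97.4% for Id2. Id1 and Id3 were thus near the middle, with Cdkn1a and Id2 towards opposite ends. Among the 1039 tiles with at least as much vehicle H3K4me2 as the Cdkn1a window, 1.06% had a ratio as low. For H3K4me1 the median over 5894 tiles was 0.209, and the Cdkn1a ratio was matched or undercut in 39.9% of tiles. With at least as much vehicle H3K4me1 as in that window it was 5.01% of 1795 tiles. The Id ratios were matched or undercut in 71.1% (Id3), 76.3% (Id1) and 78.8% (Id2) of tiles. With at least as much vehicle H3K4me1 as the window, these shares were 40.5%, 68.3% and 79.2%. For H3K4me3 the median over 9329 tiles was 1.06 (quartiles 1.01 and 1.15), and the 4 windows were at or above 80.9 to 85.8% of the tiles. Among tiles with at least as much vehicle H3K4me3 as the window, it was 91.3% for Id1, 93.7% for Id2, 96.1% for Id3 and 91.9% for Cdkn1a.

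**Figure D5:**
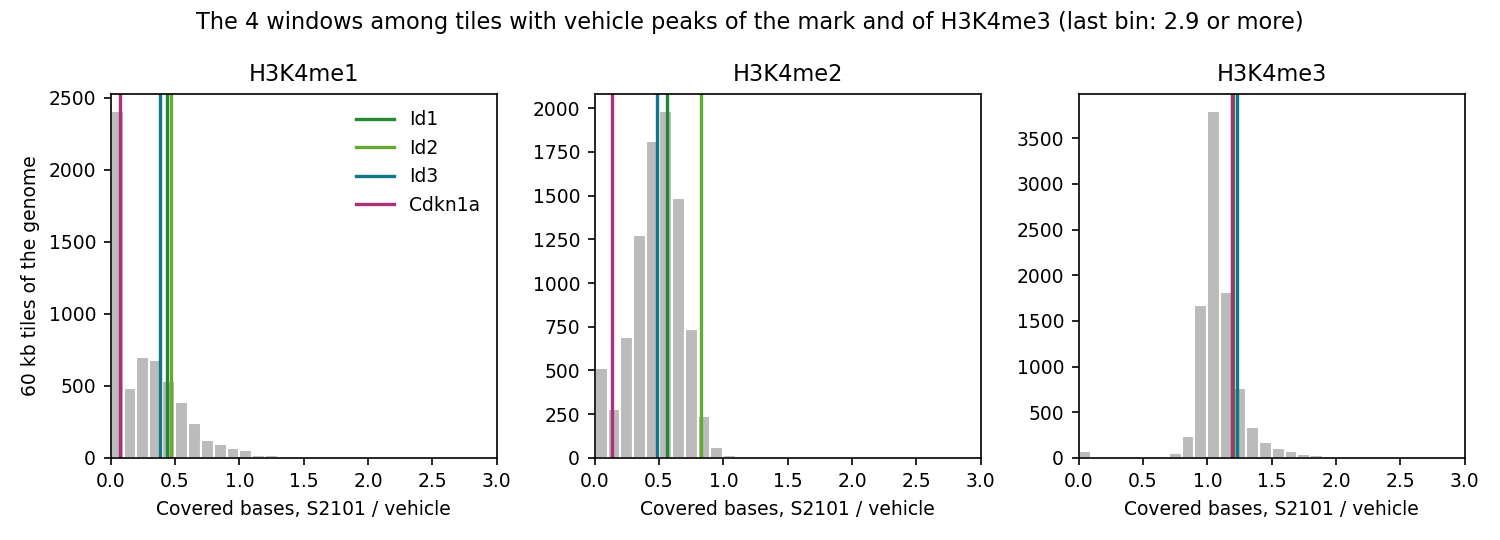
Number of 60 kb tiles (vertical axis) by their ratio of covered bases, S2101 over vehicle (horizontal axis), in 1 panel per mark, with the 4 windows as vertical lines. Cdkn1a lies at the low end for H3K4me2 (0.133) and Id2 at the high end (0.825). As the windows stand, all 4 lie close together for H3K4me3 (1.19 to 1.23).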

How the data were processed

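The authors deposited 1 list of peaks per library, each peak with its position and a score. Peaks were called with MACS within Galaxy, per the file headers, and Bowtie2, deepTools and build mm9 are named without a role in the submitters' processing notes. The deposited score comes from the authors and was used only to rank or filter peaks within a list. Caller settings, the input used and the depth are unknown, and a shallower or less enriched library can give fewer, narrower peaks. Peak lists of 6 of the 12 samples were analysed, and the 4 inputs and 2 H3 samples were not analysed here.

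Coordinates are 1-based mm9. Covered bases were counted within window edges, and a counterpart is a peak of the same mark in the other treatment with at least 1 bp in common. Tiles are consecutive 60 kb stretches of each chromosome. Peaks given by position were chosen by a rule: every H3K4me3 peak, the 3 widest and the highest-scoring peaks of the other marks per list, and every peak without a counterpart. That rule anchored distances on the widest vehicle H3K4me3 peak. This is the peak over the midpoint in 2 of 4 windows, so the midpoint peak was used instead, a change made after the peaks had been seen. The genes, windows, lists and comparisons were chosen with earlier results of these data known. Further genes of cell-cycle exit could not be placed without an mm9 annotation, and gene order and promoters come from RefSeq on GRCm38. Interval functions were tested on simulated lists against bedtools 2.31.1 (Python 3.11.15, numpy 2.4.6, matplotlib 3.10.9). Alternatives were a minimum score of 200, lists of equal length, windows narrowed or widened by 10 kb and peaks under 500 bp apart joined. Counterparts were also defined by a reciprocal overlap of 50% and by a distance within 1 kb.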

Additional observations from a re-analysis of the deposited data

How the results depend on the processing

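No paired analysis was possible because each mark and treatment has 1 library. The direction of the covered bases held in every window and mark under the alternatives run, except for H3K4me1 at Id2. There, lists of equal length left 0 bp (vehicle) and 296 bp (S2101), the opposite direction, and a score of 200 or more left 0 bp in both lists, so neither gave a ratio. Values within 1.5 times of those reported were counted as unmoved, and this held in 59 of the 70 cases for single windows that gave a ratio. For the 4 windows together, the H3K4me1 ratio of 0.353 was 0.233 at a score of 200 or more, 0.548 with lists of equal length and 0.193 within 5 kb of the central peaks, the last added after the data had been seen. H3K4me1 peak counts were 11 (vehicle) and 4 (S2101) at a score of 200 or more, 45 and 28 in windows widened by 10 kb, and 14 and 16 with lists of equal length, where their order turned. Joining peaks under 500 bp apart left 9 vehicle and 13 S2101 H3K4me2 peaks. With a reciprocal overlap of 50%, 5 vehicle and 5 S2101 H3K4me1 peaks, and 2 and 2 H3K4me2 peaks, had a counterpart. At a score of 200 or more, 3 vehicle and 3 S2101 H3K4me1 peaks had one. The Cdkn1a window's H3K4me2 ratio was 0.0650 at that score. For H3K4me2 in the central peaks, alternatives added after the data had been seen stayed within 1.5 times of the reported ratio in 15 of 16 cases. The exception was 0.0992 for Cdkn1a within the bounds of the S2101 H3K4me3 peak, where Id1 was 0.758, Id2 0.850 and Id3 0.902. With H3K4me2 peaks under 500 bp apart joined, the Id1 central peak was covered over the same length in both treatments. Where values moved, the cause was not tested.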
